A study of Mus musculus with 3 samples.

Results

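The genes described here encode 3 kinds of enzyme that remove superoxide and peroxides: 6 peroxiredoxins (Prdx1 to Prdx6), 3 superoxide dismutases (Sod1, Sod2 and Sod3) and catalase (Cat). They were taken by symbol, with no value in the rule, from the probe sets annotated with a single gene symbol. Earlier results of these data were known when they were chosen. Of these 10 genes, 7 were read, by 9 of the 26730 probe sets, among 19057 genes read in all. No probe set of a single symbol named Prdx4, Prdx5 or Prdx6, so these 3 are not analysed here. The cells were R1, an embryonic stem (ES) cell line from mouse strain 129, and 3 biological repeats were read from total RNA on Affymetrix Mouse Gene 1.0 ST arrays, whose probes lie along a transcript's exons. All 3 arrays form 1 group of 1 line with no treatment named, so the values show which of these genes gave signal and how far the repeats differed.

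Superoxide, a by-product of respiration and of dedicated oxidases, is converted to hydrogen peroxide by the superoxide dismutases, and the peroxide is then removed by peroxiredoxins, glutathione peroxidases and catalase. Peroxiredoxins carry a reactive cysteine that the peroxide oxidises, and most of them are returned to the reduced state by thioredoxin. The enzymes divide the cell between them: Prdx1, Prdx2 and Sod1 are mainly cytosolic, Prdx3 and Sod2 lie in the mitochondrial matrix, catalase lies in peroxisomes, and Sod3 is secreted. Several genes of this defence are known targets of NRF2, a transcription factor held in check by KEAP1, which binds the antioxidant response element.

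Promoters were searched for 4 short motifs on both strands, in the 250 bases before the start site, for the 8 of the 10 genes with a RefSeq promoter (GRCm38.p6). Sod3 and Prdx6 had none in the table used. The core of the antioxidant response element, TGACNNNGC, matched in Prdx1 and Sod1, and in 10.2% of 32851 promoters. TATAAA, the TATA box, matched in Prdx1, Prdx3 and Sod1 and in 12.4% of all promoters. The match in Prdx3 lay on the opposite strand, 239 to 234 bases before the start, far from the place of those in Prdx1 and Sod1. GGGCGG, the GC box, matched in 7 of the 8, with Prdx2 the exception, and in 32.7% of all promoters. CCAAT matched in Prdx4, Sod1, Sod2 and Cat and in 33.8% of all promoters. GC content in this window was 55.6% to 69.2% in the 8 genes, and the median of all promoters was 52.4%. Promoters of 3 detected genes are shown because they differ in make-up: Prdx1 and Sod1 hold both the antioxidant response core and a TATA box, and Sod2 holds 4 GC boxes and neither of those motifs. Capitals mark every match of the 4 motifs, the sequences run 5′ to 3′ on the gene's strand, and adjoining GC boxes of Sod1 overlap.
Prdx1: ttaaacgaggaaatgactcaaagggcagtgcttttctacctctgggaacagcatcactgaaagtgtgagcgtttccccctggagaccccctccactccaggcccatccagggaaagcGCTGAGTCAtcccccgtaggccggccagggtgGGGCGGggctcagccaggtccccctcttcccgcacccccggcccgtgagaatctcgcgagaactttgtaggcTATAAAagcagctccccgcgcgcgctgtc
Sod1: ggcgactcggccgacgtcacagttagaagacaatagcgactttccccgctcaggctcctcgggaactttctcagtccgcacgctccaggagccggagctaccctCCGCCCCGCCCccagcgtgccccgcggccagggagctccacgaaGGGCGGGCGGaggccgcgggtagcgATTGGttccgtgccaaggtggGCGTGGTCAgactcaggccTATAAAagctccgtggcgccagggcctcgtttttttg
Sod2: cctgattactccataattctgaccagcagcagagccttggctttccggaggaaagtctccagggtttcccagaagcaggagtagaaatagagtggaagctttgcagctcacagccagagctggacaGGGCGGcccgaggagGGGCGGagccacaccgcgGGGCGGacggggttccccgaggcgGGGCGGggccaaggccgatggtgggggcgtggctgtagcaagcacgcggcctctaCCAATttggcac
They lie on the plus strand at chr4:116685349-116685598 for Prdx1, chr16:90220512-90220761 for Sod1 and chr17:13007589-13007838 for Sod2. In Prdx1 the core lay 133 to 125 bases before the start, on the opposite strand, and the TATA box 29 to 24 bases before it. In Sod1 the core lay 56 to 48 bases before the start, on the opposite strand, and the TATA box 37 to 32. A match describes letters in the window; the arrays measured transcripts, and no binding at these promoters was measured.

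Background was set on each array from 1170 genes of olfactory and vomeronasal receptors, families taken as silent here, whose 95th percentile was a log2 intensity of 4.72, 4.60 and 4.61 in repeats 1, 2 and 3. Of the 7 genes read, 6 exceeded it on all 3 arrays (Prdx1, Prdx2, Prdx3, Sod1, Sod2 and Cat), and Sod3 did on 1. Over all genes outside the receptor families the share that did was 71.4%. The same 6 passed under all 10 alternatives tried for the cutoff, the scaling and the arrays used. In RNA from bulk cultures, fewer cells expressing a gene and less RNA per cell cannot be told apart. Intensity also depends on the probes of a set, so no gene's level is ranked against another's.

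Both cytosolic peroxiredoxins gave strong signal over background, and their probe sets behaved differently. The 2 probe sets of Prdx1, an abundant peroxidase that also acts in redox signalling, read log2 10.76, 10.87 and 10.89 and log2 10.68, 10.89 and 10.77 in repeats 1, 2 and 3. The first set minus the second was 0.075, -0.025 and 0.123 log2 units in repeats 1, 2 and 3, a mean of 0.058 ± 0.075 (SD, n = 3). The first set was highest in repeat 3 and the second in repeat 2. Averaged, Prdx1 read 10.72, 10.88 and 10.83, a mean of 10.81 ± 0.081 (SD, n = 3), lowest in repeat 1. Prdx1 exceeded the cutoff by at least 6.0 log2 units, in repeat 1, and by 6.28 in repeat 2.

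Prdx2, the peroxidase best known for its abundance in red blood cells, had probe sets that disagreed on level and agreed on the repeats. The brighter set read log2 10.65, 10.58 and 10.88 (intensities 1603, 1536 and 1885) and the dimmer set 7.997, 7.94 and 8.22 (intensities 255, 245 and 299). The gap between them was 2.65 ± 0.0063 (SD, n = 3) log2 units, or 6.28-fold, on every array nearly the same. Both sets were highest in repeat 3 and lowest in repeat 2. The gene mean of 9.38 ± 0.15 (SD, n = 3) is therefore an average of unlike readings, and the level of Prdx2 is uncertain. RefSeq lists the pseudogenes Prdx1-ps, Prdx2-ps1 and Prdx2-ps2, and none of them had a probe set of its own here. Whether a probe set also reads such a copy was not tested.

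Prdx3, the mitochondrial peroxiredoxin, read log2 8.95, 8.88 and 9.14 in repeats 1, 2 and 3, with a mean of 8.99 ± 0.13 (SD, n = 3). Repeat 3 was the highest and repeat 2 the lowest, the same order as in both sets of Prdx2. Highest over lowest came to 1.19-fold for Prdx3 and 1.22-fold for Prdx2.

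**Figure D1:**
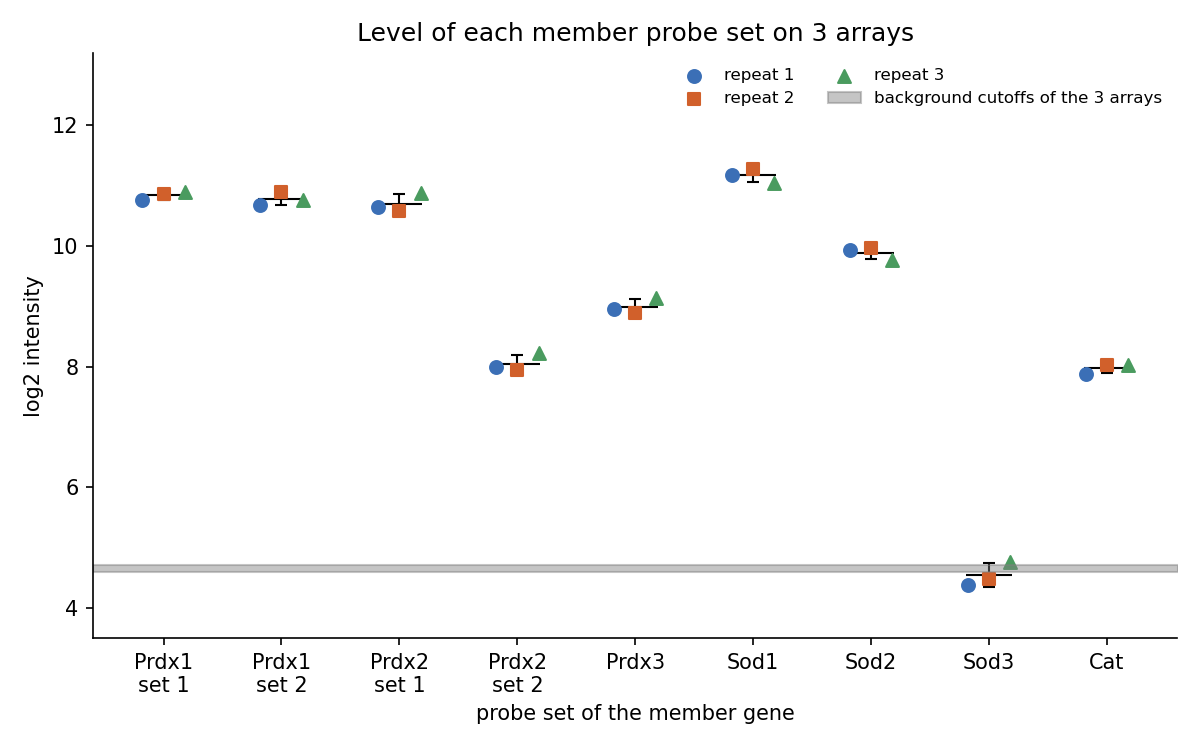
Log2 intensity (vertical axis) of the 9 probe sets (horizontal axis) in repeats 1, 2 and 3, with the mean as a dash, the SD as an error bar and the background cutoffs of the 3 arrays as a grey band. The points of 8 probe sets lie well above the band, those of Sod3 straddle it, and the 2 sets of Prdx2 lie 2.65 log2 units apart.

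The intracellular dismutases gave signal on every array, and the secreted one was near background. Sod1, the copper and zinc enzyme of the cytosol, read log2 11.18, 11.29 and 11.05 (intensities 2326, 2496 and 2120), a mean of 11.17 ± 0.12 (SD, n = 3). Sod2, the manganese enzyme of mitochondria, read log2 9.93, 9.97 and 9.77, a mean of 9.89 ± 0.10 (SD, n = 3). Both were lowest in repeat 3. Sod3, the extracellular enzyme that binds the matrix around cells, read log2 4.39, 4.48 and 4.77 (intensities 20.9, 22.4 and 27.3). It lay 0.33 and 0.12 log2 units under the cutoff in repeats 1 and 2 and 0.16 over it in repeat 3. Expression of Sod3 was therefore not shown, and its value is a limit of detection, not a sign of silence.

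Catalase, which splits hydrogen peroxide to water and oxygen, read log2 7.88, 8.03 and 8.03 (intensities 235, 262 and 261), a mean of 7.98 ± 0.089 (SD, n = 3). Repeat 1 was the lowest and the other repeats were nearly equal. Its smallest distance from the cutoff was 3.15 log2 units, in repeat 1.

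The genes did not share one order of the repeats. Prdx2 and Prdx3 were higher in repeat 3 than in the mean of the others, by 0.26 and 0.22 log2 units (1.20-fold and 1.17-fold). Sod1 and Sod2 were lower there, at -0.18 log2 units each (0.88-fold for both). Prdx1 and Cat were lower in repeat 1, at -0.13 and -0.15 log2 units. These signs held under quantile normalization, median centring, an added offset of 16 and use of the highest probe set of a gene. Which repeat was highest did not always hold: repeat 2 was highest for Prdx1, Sod1, Sod2 and Cat, but after quantile normalization repeat 1 was highest for Sod2 and repeat 3 for Cat, and with the highest probe set repeat 3 was highest for Prdx1. Of the 6 genes above background, repeat 1 was highest in 0, repeat 2 in 4 and repeat 3 in 2, beside 29.97%, 36.9% and 33.1% of the 12820 genes above background. The median over the 7 genes of repeat 1, 2 and 3 minus the mean of the others was -0.085, 0.079 and 0.075 log2 units, and over all genes above background -0.011, 0.0064 and 0.0019. Each repeat is 1 array, so these differences between repeats have no replicate of their own.

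**Figure D2:**
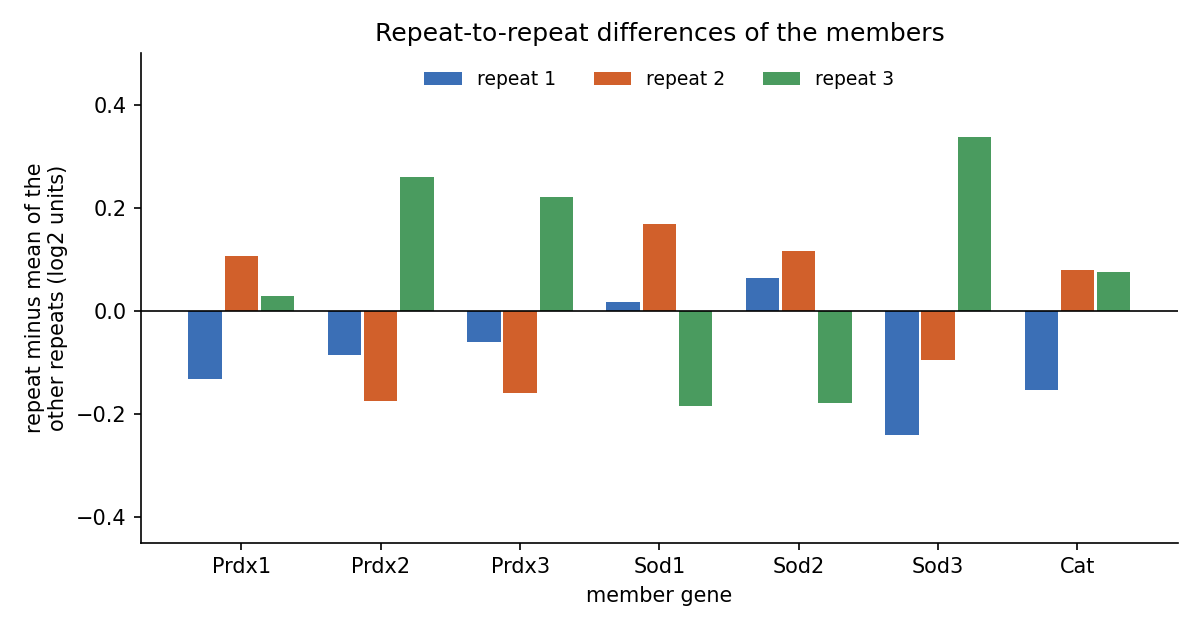
Log2 value of each repeat minus the mean of the other repeats (vertical axis, log2 units) for the 7 genes read (horizontal axis), with a bar for each repeat. Repeat 3 stands at 0.26 for Prdx2 and 0.22 for Prdx3 and at -0.18 for Sod1 and Sod2; Sod3 is near background.

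None of the genes passed the test for variation between repeats beyond that of genes of like level. In the limma variance test, which sets the variance of a gene over the 3 arrays against a trend with level, 0 of the 7 genes had a Benjamini-Hochberg adjusted p under 0.05, and 0 had an unadjusted p under 0.05. Over all 13596 genes tested, 22 (0.162%) passed after adjustment and 5.75% had an unadjusted p under 0.05. The smallest unadjusted p was that of Prdx2 (0.117, adjusted p = 0.974), whose SD was 1.64 times the trend at its level. Sod1 followed with an SD of 1.59 times the trend (adjusted p = 0.975), and Cat had the evenest values for its level, at 0.82 times the trend (adjusted p = 0.997). The level of Prdx2 used here is an average of unlike probe sets. With the highest probe set of each gene, the unadjusted p of Prdx2 was 0.0587 (limma, adjusted p = 0.910). Over all alternatives the adjusted p of the 7 genes ran from 0.875 to 0.999 in this limma test. A p that misses the threshold does not show that the repeats were equal. The median SD was 0.111 log2 units over the 6 genes above background and 0.101 over all genes above background. With Sod3 included it was 0.118, and 0.166 without repeat 1 and 0.068 without repeat 3.

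**Figure D3:**
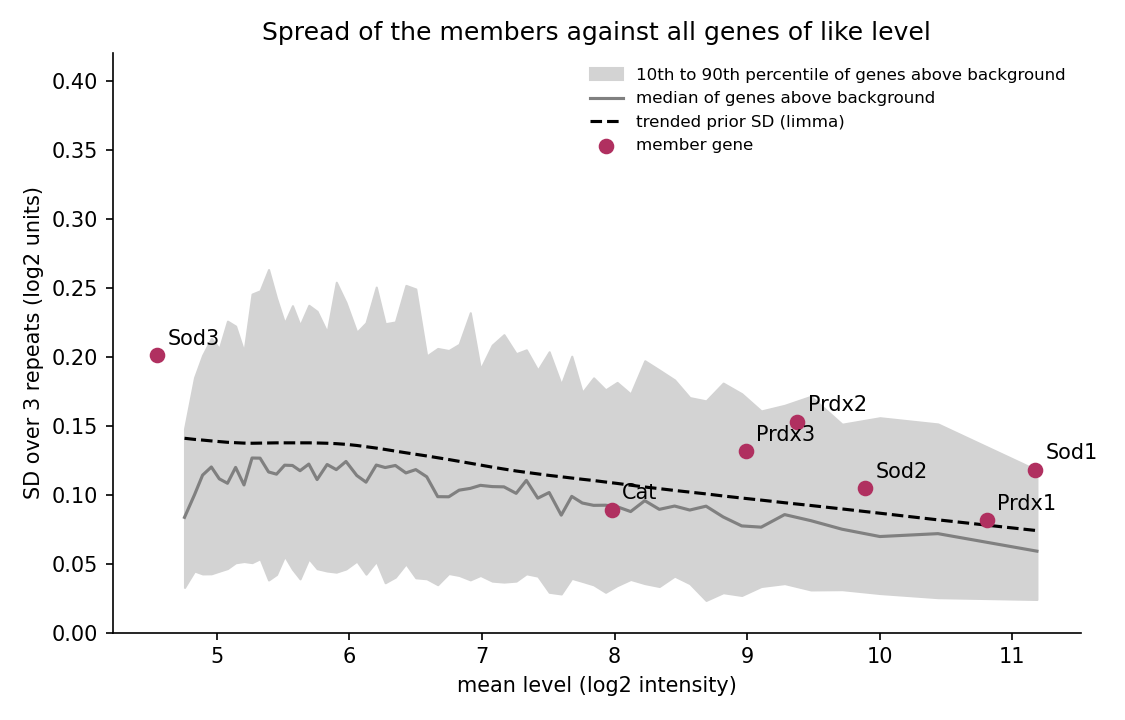
SD over the 3 repeats (vertical axis, log2 units) against mean level (horizontal axis, log2 intensity) for the 7 genes as points, with the 10th to 90th percentile and the median of genes above background, in 60 bins of level, and the trended prior SD of limma. Cat lies under the dashed trend, and the others above it, with Prdx2 at 1.64 and Sod1 at 1.59 times the trend.

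Among the 22 genes called by the variance test, repeat 2 was the farthest from the median in 19. That share was not counted over all genes, so the 19 cannot be set against one. On a different measure, over all genes above background, repeat 2 was highest in 36.9% and lowest in 34.8%. Pearson correlation over all genes was 0.995 for repeats 1 and 2, 0.9965 for 1 and 3, and 0.9949 for 2 and 3. Of 11 fibroblast or feeder cell markers read, 10 were above background on all 3 arrays, Lum being the exception. Beside each marker count here stands the 71.4% of all genes outside the receptor families that were above background. Of the 11, 8 were highest in repeat 2, where 36.9% of all genes above background were highest. Summed intensity of the fibroblast or feeder cell markers was 3189, 4345 and 3344 in repeats 1, 2 and 3. Acta2, smooth muscle actin, was the 1 of them that passed the variance test (limma, adjusted p = 0.0083). The lists were chosen with earlier results of these data known, so this pass is not independent evidence of variation. In repeat 2, Sod1, Sod2, Prdx1 and Cat were higher than in the other repeats averaged, by 0.17, 0.12, 0.11 and 0.079 log2 units. Prdx2 and Prdx3 went the other way, at -0.17 and -0.16, as did Sod3, near background, at -0.096. After quantile normalization the values were 0.12 for Sod1, 0.060 for Sod2, 0.046 for Prdx1 and 0.023 for Cat. Those of Prdx2, Prdx3 and Sod3 were then -0.22, -0.21 and -0.047. With the highest probe set of each gene, the value of Prdx1 was 0.044. The part of fibroblast or feeder cells in these differences was not tested. All 9 ES cell markers read were above background, including Pou5f1 at 11.77 ± 0.12 and Nanog at 11.002 ± 0.20 (SD, n = 3). Of 4 erythroid markers read, of a cell type rich in Prdx2 and catalase, 3 were above background, with Epor at 5.47 ± 0.14, Klf1 at 5.07 ± 0.072 and Slc4a1 at 5.04 ± 0.11, while Rhag was not (2.79 ± 0.14). None of the 4 exceeded either stricter cutoff, the 99th percentile of the receptor genes or the 95th percentile of other silent families, on all 3 arrays. Globin genes and Alas2 were not read. Of 7 markers of hepatocytes and visceral endoderm, rich in catalase, 2 were above background (Apoa1 and Apoa2), and Alb read 3.37 ± 0.075. Of 7 macrophage markers 1 was, Cd68, and Ptprc read 3.70 ± 0.030. Summed intensity ran from 109 to 123 for the erythroid, from 162 to 169 for the hepatocyte and from 249 to 273 for the macrophage markers over the 3 arrays.

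Stricter background cutoffs lowered most counts of the neighbouring gene lists, so each is given at the main cutoff, at the 99th percentile and from the other silent families, where all genes stood at 71.4%, 55.0% and 41.8%. Of the 13 genes of the thioredoxin system, which recycles peroxiredoxins, 13, 12 and 10 were above background on all 3 arrays. Of them 0 passed the limma variance test (0 at an unadjusted p under 0.05). Txn1, the cytosolic thioredoxin, read log2 12.08, 12.00 and 12.05, and Txnrd1, the reductase that keeps it reduced, read 9.90, 9.79 and 9.88. Srxn1, the sulfiredoxin that rescues over-oxidised peroxiredoxins, read 7.46, 7.64 and 7.61. Txn2, the mitochondrial thioredoxin that serves Prdx3, was even, at 9.27, 9.28 and 9.30. Txnl1, a thioredoxin-like protein, had the largest SD of the list, at 8.95 ± 0.18 (SD, n = 3; limma adjusted p = 0.94).

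The glutathione branch, which removes peroxides in parallel, held 15 of 17 genes above background, and 12 and 10 at the stricter cutoffs, beside 71.4%, 55.0% and 41.8% of all genes. Gpx1, the cytosolic glutathione peroxidase, read log2 10.14, 10.31 and 10.59, and Gpx4, which reduces lipid peroxides, read 10.18, 10.30 and 10.06. Gsr, which regenerates glutathione, read 9.46, 9.06 and 9.56, lowest in repeat 2, and Gclc, of the first step of glutathione synthesis, read 8.99, 8.85 and 8.87. Gpx2 had the largest SD of the list and was lowest in repeat 2, at 5.90, 5.19 and 5.93. Gpx5 (2.75 ± 0.17) and the cystine transporter Slc7a11 (4.31 ± 0.35; SD, n = 3) were below the cutoff on every array. In the limma variance test 0 of these genes passed after adjustment and 4 had an unadjusted p under 0.05, beside 5.75% of all genes tested. Gpx1 had an adjusted p of 0.534 with all 3 arrays and of 0.048 without repeat 2, and its adjusted p ran from 0.048 to 0.991 over all settings.

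Supply of metal to the dismutases was read by 5 genes, of which 5 were above background at the main cutoff (71.4% of all genes) and 4 at each stricter one. Ccs, the chaperone that loads copper into Sod1, read log2 6.68, 6.86 and 6.76, and Slc31a1, the copper importer of the cell surface, read 7.54, 7.61 and 7.51. Atox1, a copper chaperone, had the largest SD of the list, at 9.04, 8.91 and 9.28, and Slc39a14, which imports zinc and manganese, read 8.49, 8.31 and 8.28. Atp7a was not read. By the limma variance test 0 of the 5 passed, and 0 had an unadjusted p under 0.05.

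Of 10 genes of the NRF2 axis, 10 were above background at the main cutoff, beside 71.4% of all genes, and 9 and 7 at the stricter ones. Nfe2l2, which encodes NRF2, read log2 7.89, 8.07 and 8.13, lowest in repeat 1, and its inhibitor Keap1 read 6.69, 6.82 and 6.64. Of the targets, the quinone reductase Nqo1 read 6.41, 6.26 and 6.73, highest in repeat 3, and the haem oxygenase Hmox1 read 8.87, 9.21 and 8.81, highest in repeat 2. Cul3, the ubiquitin ligase scaffold that works with Keap1, had the largest SD, at 10.11, 10.58 and 10.11. By the limma variance test 0 of the 10 passed after adjustment, and 3 had an unadjusted p under 0.05 (5.75% of all genes tested did), with 0.364 as the lowest adjusted p, that of Cul3.

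Oxidases that make superoxide or peroxide were mostly not detected. Of 11 genes read, 3 were above background on all 3 arrays (27.3%, beside 71.4% of all genes). Cyba, a membrane subunit shared by several NADPH oxidases, read log2 7.20, 7.28 and 7.10, and the organiser subunits Noxo1 and Ncf1 read 5.37 ± 0.067 and 4.99 ± 0.12 (SD, n = 3). The catalytic subunits Nox3 (3.82 ± 0.15) and Nox4 (4.14 ± 0.10) and the cytosolic subunit Ncf4 (4.32 ± 0.16) were under the cutoff on every array. At each stricter cutoff 1 of the 11, Cyba, was above background. The limma variance test called 0, with 0 at an unadjusted p under 0.05.

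Around catalase, 7 of 8 genes of peroxisomal import and oxidation were above background, at the stricter cutoffs too, beside 71.4% of all genes at the main one. Pex5, the receptor that carries catalase into peroxisomes, read log2 7.20, 7.24 and 7.26, and its docking partners Pex14 and Pex13 read 7.57 ± 0.073 and 7.62 ± 0.078 (SD, n = 3). Pex7, the second import receptor, read 7.58 ± 0.016. Dao, the peroxisomal D-amino acid oxidase, which makes hydrogen peroxide, was under the cutoff on every array, at 3.72 ± 0.053. By the limma variance test 0 of the genes passed, with 0 at an unadjusted p under 0.05. Over the 6 lists, 53 of 64 genes read were above background at the main cutoff, where 71.4% of all genes were.

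**Figure D4:**
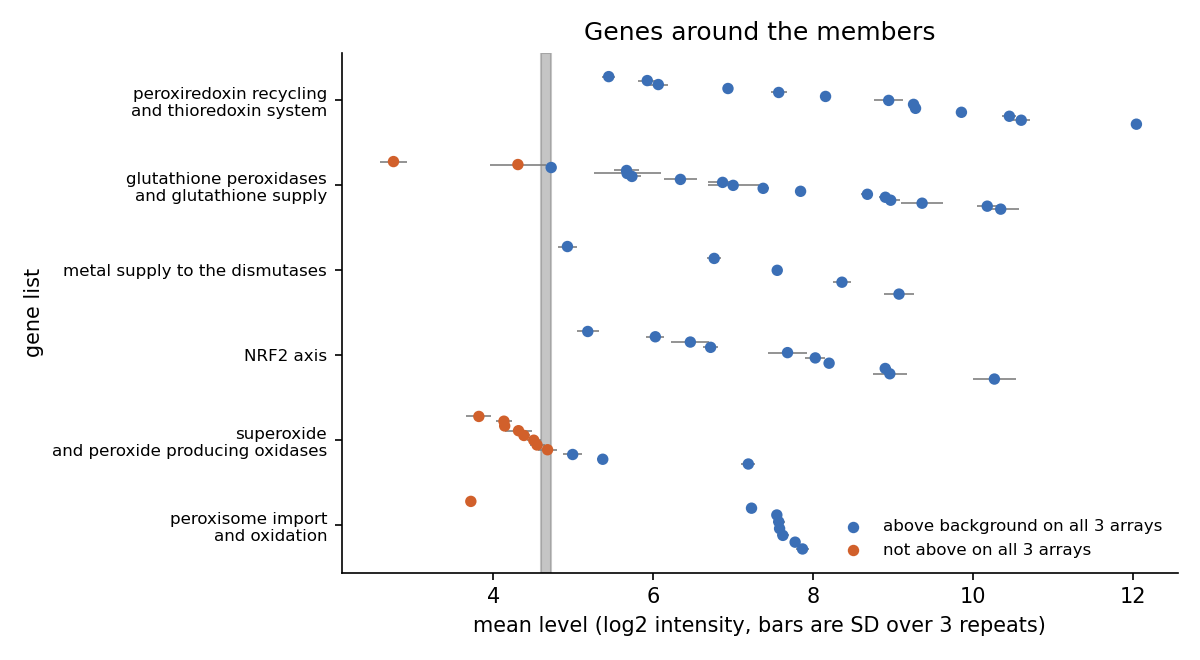
Mean log2 intensity (horizontal axis, with the SD over 3 repeats as bars) of the 64 genes read in the 6 lists (vertical axis), coloured by the background call, with the cutoffs as a grey band. Of the oxidases 3 of 11 lie above the band on all 3 arrays, and of the thioredoxin system 13 of 13.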

How the data were processed

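The authors deposited 1 intensity per probe set and array, linear by its range, and the submitters' processing notes name GCOS 1.4. How background was corrected, arrays were normalized and probe sets were summarised is not given in the sources used here. Log2 was taken with no further normalization. The supplied platform annotation gave 1 gene symbol to 20764 of 26730 probe sets, several to 1419 and none to 4547, and only those with 1 were used. A gene's value is the mean log2 of its probe sets. The variance test was limma 3.58.1 in R 4.3.3: an intercept-only fit, a trended and robust prior, the upper tail of F with 2 and 9.86 degrees of freedom, and Benjamini-Hochberg adjustment at 0.05 over genes that exceeded the cutoff on 1 array or more. It was tested on simulated data. Named genes of a list are its first 4 read, the one with the largest SD, and, where 5 or fewer lie on the rarer side of the cutoff, those. The genes and lists were chosen with earlier results of these data known. The labels call the repeats biological without describing the cultures, and 3 arrays limit the precision. Alternatives for the cutoff were the 99th percentile, the 95th percentile of other silent families (155 genes) and 2 of 3 arrays. For the values they were quantile normalization, median centring, the highest probe set, an offset of 16 and each repeat left out in turn. For the variance test they were also all genes and a prior fitted without the robust step or without the trend. A test of each probe set on its own was added after seeing the data.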

Additional observations from a re-analysis of the deposited data

How the results depend on the processing

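The count of 6 genes above background was the same under the 10 alternatives run for it: both stricter cutoffs, 2 of 3 arrays, the scalings, the offset, the highest probe set and each repeat left out. The count of 0 in the variance test was the same with those scalings, the offset, the highest probe set, each repeat left out, all genes, both other priors and each probe set on its own. With the 99th percentile as cutoff (log2 5.48, 5.39 and 5.52) and with other silent families (6.22, 6.31 and 6.23), counts above background became 1 and 1 for the oxidases in place of 3, 12 and 10 for thioredoxin in place of 13, 12 and 10 for glutathione in place of 15, 9 and 7 for NRF2 in place of 10, and 4 and 4 for metal supply in place of 5. Leaving out a repeat moved the median SD over the 7 genes between 0.068 and 0.166, from 0.118. In the glutathione list it gave between 0 and 1 genes past the variance test, the 1 being Gpx1 without repeat 2; the cause was not tested. Sod3 had an unadjusted p of 0.047 without repeat 2 and an adjusted p of 0.875 there. The highest probe set put Prdx2 at log2 10.70 in place of 9.38, since its dimmer probe set was left out, and the offset of 16 put Sod3 at 5.30 in place of 4.55. No paired analysis was possible because the labels give a single group. Signal over background limits Sod3, whose values lie at the cutoff.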

Other observations

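Prdx6-ps2, listed by RefSeq as a pseudogene of Prdx6, had a probe set of its own, although Prdx6 itself had none. It read log2 5.94, 6.42 and 6.33 in repeats 1, 2 and 3, a mean of 6.23 ± 0.25 (SD, n = 3), and was lowest in repeat 1. On all 3 arrays it was above background at the main cutoff and at the 99th percentile. In repeat 1 it was under the cutoff from other silent families (6.22), and in repeats 2 and 3 slightly over it (6.31 and 6.23). Whether it reads the pseudogene or the parent transcript was not tested.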
